A study of Mus musculus with 16 samples.

Results

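TFIID and Mediator are the large complexes through which RNA polymerase II is brought to promoters. TFIID recognises the core promoter through the TATA-binding protein (encoded by Tbp) and its associated factors (the TAFs), many of which pair through histone-fold domains. Mediator bridges DNA-bound activators and the polymerase, with a head, a middle and a tail joined by the backbone subunit Med14 and a separable kinase module of Cdk8 (or its paralog Cdk19), cyclin C, Med12 and Med13. In embryonic stem cells (ESCs) both complexes are known for their part in the expression of pluripotency genes.

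The genes described here were chosen by symbol. They are Tbp, Ak6, Cdk8, Ccnc and the genes whose symbol is Taf or Med followed by a digit, without the RNA polymerase I factors Taf1a to Taf1d and without pseudogenes, and they had a mean of at least 10 counts over the 8 input libraries. This gave 53 of the 46983 genes listed. Med9os, annotated on the strand opposite Med9, had a mean of 3.12 counts and was left out. TFIID took 17 of the 53 genes and Mediator 32. The other 4 were Taf5l and Taf6l, which belong to the histone acetyltransferase complex SAGA, Taf15, an RNA-binding protein of the FET family, and Ak6, an adenylate kinase gene at the Taf9 locus. Of the 53 genes, 52 passed the filter on low counts (at least 1 CPM, the usual count scaled to library size, in at least 10 of the 16 libraries), 16 of TFIID and all 32 of Mediator, and Taf9 did not.

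RNA was sequenced from 46C mouse ESCs, a 129Ola line that reports Sox1 with GFP, grown with leukaemia inhibitory factor. Cells were transfected for 48 hr with a RAM siRNA or with a non-targeting control siRNA (70 pM per the labels, while the study's general methods give another amount and reagent). RAM, encoded by Ramac, activates the cap methyltransferase RNMT. All cells, controls included, were held in cycloheximide before lysis, a part of the lysate was kept as input, and sucrose gradient fractions 17 to 22 were pooled as polysomes. Each of the 4 groups (input and polysome, control and RAM siRNA) had 4 replicates, which the study describes as transfections on 4 separate occasions with 1 RAM siRNA, so the responses to the siRNA rest on a single siRNA sequence.

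Libraries held between 16647523 and 20147833 counts. Ramac lay between 10.1 and 11.6 CPM in the control input libraries and between 2.67 and 3.17 CPM in the RAM siRNA input libraries, and the groups did not overlap. The ESC markers Pou5f1, Nanog, Sox2, Klf4, Esrrb, Zfp42 and Tfcp2l1 summed to 2190 to 2370 CPM in control input and to 1930 to 2060 CPM in RAM siRNA input. Of the markers of other cells, the 5 of fibroblasts summed to 8.05 to 9.63 CPM in control and 8.94 to 11.2 CPM in RAM siRNA input, with Col3a1 and Dcn at 0 in every control library. The 4 of neural progenitors summed to 39.1 to 51.5 and 45.6 to 59.1 CPM, the 3 of neurons to 28.0 to 46.3 and 30.1 to 46.9 CPM, and none of 3 trophoblast markers reached 1 CPM. The primitive endoderm markers summed to 3.60 to 4.90 CPM in control input and 5.57 to 6.85 CPM in RAM siRNA input. The part of such cells in the results below was not tested, and in these bulk samples fewer cells of a type and less RNA per cell cannot be told apart. The polysome libraries of replicates 2 and 4 lay at opposite extremes by transcript length, as described below, RAM siRNA replicate 2 being the farthest out, and counts of polysome calls are given with and without replicate 2. Libraries with the same replicate number deviated from their group means together, so a fit that holds replicate differences constant (a replicate block) is given beside the members whose call it changes.

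The genes of both complexes were transcribed over a wide range of levels. Per kilobase of annotated transcript, TFIID genes had a median of 8.98 CPM in control input, with 32.9 as the highest, and Mediator genes had a median of 15.0 and ranged from 1.21 to 61.9. In TFIID the highest were Taf7 (32.9 ± 2.26 CPM per kb, SD, n = 4), which binds and restrains Taf1, Taf6 (28.2 ± 1.39), the histone-fold partner of Taf9, and Taf2 (18.4 ± 1.33), which contacts the initiator. Low values were those of Tbp (3.35 ± 0.203 CPM per kb), Taf9b (1.86 ± 0.211) and Taf9 (0.352 ± 0.0792), the last of which shares its exons with Ak6 and gives no measure of Taf9 mRNA, as described below. Over exonic bases Taf3 (2.80) was also below Tbp (3.15 CPM per kb). The Tbp value divides by an annotated transcript of 12794 bases, of which 948 are coding, so it rests on a long annotated untranslated end.

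In Mediator, Med6 (61.9 ± 4.22 CPM per kb, SD, n = 4), Med10 (49.7 ± 2.01) and Med8 (46.3 ± 3.01), small subunits of the head and middle, were highest. Med14 (3.84 ± 0.333 CPM per kb), Med12 (3.42 ± 0.342) and Med12l (1.21 ± 0.195) were lowest, and the libraries of Med14 (3.52 to 4.30) and Med12 (3.05 to 3.77) overlapped. Levels per kilobase depend on the length used. Over all exonic bases that no same-strand gene shares, Med6 stayed highest (45.3 CPM per kb). Med10, with 4491 exonic bases against a transcript of 815, was at 9.02 and Med8, with 3001 against 1145, at 17.7 CPM per kb. By that length Med12l (0.97) stayed lowest, but Med15 (1.51) lay below Med14 (3.05) and Med12 (3.35 CPM per kb).

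Several subunits have a paralog. The control input libraries overlapped per kilobase for Taf4 and Taf4b (8.74 ± 0.744 and 8.98 ± 0.567 CPM per kb, SD, n = 4), for Med13 and Med13l (11.7 ± 1.38 and 13.2 ± 0.913) and for Taf6 and its SAGA relative Taf6l (28.2 ± 1.39 and 26.9 ± 0.588). Over all exonic bases Taf4 and Taf4b still overlapped, but Med13 (10.2 to 13.1) lay above Med13l (6.02 to 7.001) and Taf6 (13.8 to 15.3) above Taf6l (11.3 to 11.9 CPM per kb). Taf5l, the SAGA relative of Taf5, was above it (36.6 ± 0.430 against 9.80 ± 0.871 CPM per kb). Taf7 was above the germ-cell paralog Taf7l (32.9 ± 2.26 against 8.47 ± 1.22 CPM per kb), Cdk8 above Cdk19 (16.4 ± 0.0889 against 3.62 ± 0.148), and Med12 above Med12l (3.42 ± 0.342 against 1.21 ± 0.195).

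Taf9 is the member for which these counts say least. It is annotated on chromosome 13 of GRCm38 from 100651579 to 100656060 on the plus strand, inside Ak6 (100650979 to 100666359, same strand). Of its 2120 exonic bases, 1564 (73.8%) are also exonic in Ak6. In addition, 1 annotated Ak6 transcript carries the whole Taf9 coding sequence of 792 bases, so a read from that sequence cannot be assigned to a single gene. RefSeq places the start of Ak6 and a start of Taf9 at the same base. The 300 bases around it (chr13:100651093-100651392, GRCm38.p6, plus strand) are printed because they serve both genes, with the 50 bases from the start onwards in capitals.

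Ak6 and Taf9 start: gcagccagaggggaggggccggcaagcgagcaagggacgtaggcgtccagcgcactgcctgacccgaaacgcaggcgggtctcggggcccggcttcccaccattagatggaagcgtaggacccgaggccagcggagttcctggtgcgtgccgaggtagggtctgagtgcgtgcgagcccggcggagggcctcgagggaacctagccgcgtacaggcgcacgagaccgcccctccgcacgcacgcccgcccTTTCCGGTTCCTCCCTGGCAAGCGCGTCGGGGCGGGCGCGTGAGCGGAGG

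A further RefSeq start of Taf9 lies 264 bases downstream. Taf9 had 10 to 18 counts per control input library and 8 to 16 per RAM siRNA input library, and 0 to 2 counts in the polysome libraries. Ak6 had 195 to 280 counts per control input library, and Taf9b, the paralog of Taf9, had a mean of 94.1 counts over the 8 input libraries. The Taf9 values therefore give no measure of Taf9 mRNA, and it was not tested.

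**Figure D1:**
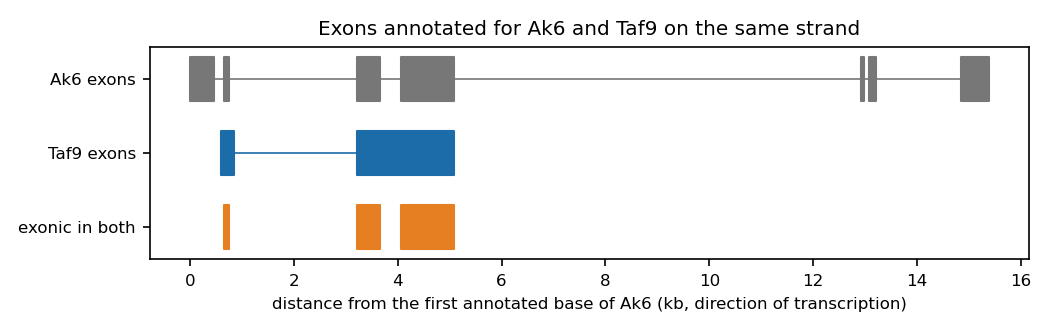
Exons annotated for Ak6 (grey) and Taf9 (blue) and the bases exonic in both (orange), along the distance in kb from the first annotated base of Ak6 in the direction of transcription. The orange blocks hold 1564 of the 2120 exonic bases of Taf9.

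Without the replicate block, few genes of either complex passed the test for a response to RAM siRNA in input RNA, and more passed with it. Of TFIID, Taf6 fell and Taf7l rose, and the other 14 tested did not pass the test. Of Mediator, Med6 and Ccnc fell and Med20 rose, and 29 did not pass. In all, 3 members were lower and 2 higher at an adjusted p under 0.05 (edgeR quasi-likelihood test, Benjamini-Hochberg adjustment over 12805 genes). They were 9.62% of the 52 tested, beside 12.9% of all genes called in either direction (5.94% lower and 6.95% higher). The members' share was thus not above that of all genes. The median log2 fold change was -0.03 for the 16 TFIID genes and -0.03 for the 32 Mediator genes, beside 0.00 for all genes tested. Without each library in turn it lay between -0.0682 and -0.00146 for TFIID, the extremes being without control replicate 3 and RAM siRNA replicate 3, and between -0.0316 and 0.00831 for Mediator, the extremes being without RAM siRNA replicate 2 and control replicate 4. The median size of the change regardless of sign was 0.07 in TFIID and 0.08 in Mediator, beside 0.14 over all genes.

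With the replicate block, 16 members passed, 9 lower and 7 higher (edgeR), where the background was 19.0% of all genes lower and 20.3% higher. These were 30.8% of the members tested, beside 39.3% of all genes called in either direction. DESeq2 called 6 members without the block, when it called 15.4% of all genes. With the block it called 7, 4 lower and 3 higher, when it called 24.6% of all genes. These 7 were the 5 above with Med22 and Med9, so the other calls made with the block in edgeR were not made by DESeq2. The genes added in edgeR were Taf5, Taf12, Med9, Med14, Med19 and Ak6 among the lower and Med8, Med12l, Med17, Med22 and Med25 among the higher. The head had 1 gene lower and 4 higher of 7. Counted this way, TFIID had 3 genes lower and 1 higher of 16, and Mediator 5 lower and 6 higher of 32. Leaving out each input library in turn moved the number called between 3 and 8 without the block and between 9 and 18 with it, and the order of the complexes by share called was not tested. Without the block the count was 8 without control replicate 3 or without RAM siRNA replicate 4, and 3 without any other input library. With the block it was 9 without either library of replicate 1 and 18 without either of replicate 4. The share of all genes called in these fits is not given here, so the swings cannot be set against a background.

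**Figure D2:**
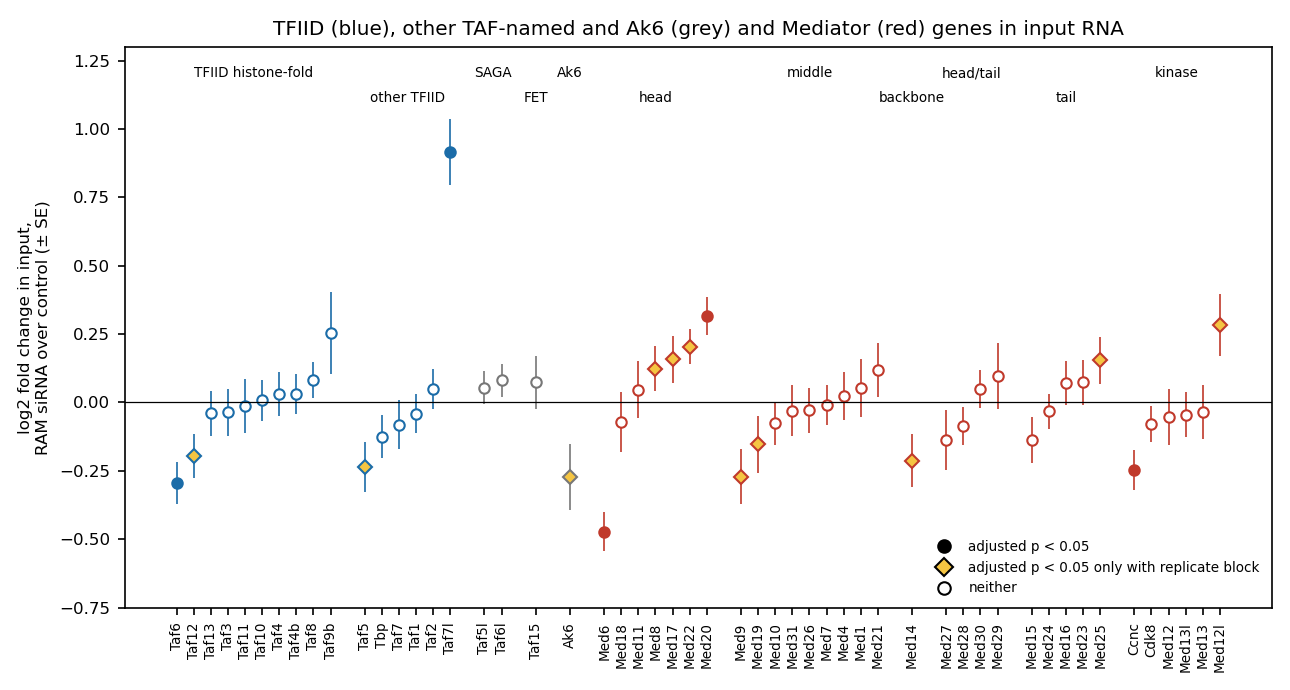
Log2 fold change of each tested member in input RNA, RAM siRNA over control, with its standard error (n = 4 libraries per group), ordered by part of the complex. Filled circles passed an adjusted p of 0.05 in edgeR, yellow diamonds passed only with the replicate block, and open circles passed neither. Taf7l at 0.92 lies apart from the other members, which range from -0.47 to 0.32.

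Taf7l showed the largest change. It encodes the paralog of Taf7 best known from male germ cells and lies on chromosome X (ENSMUSG00000009596, 134460118 to 134476490, minus strand). Its control input libraries had 19.6, 16.6, 15.1 and 14.2 CPM for replicates 1 to 4, and the RAM siRNA libraries 31.0, 29.2, 26.7 and 37.1. Every RAM siRNA library was above every control library. The log2 fold change was 0.92 (SE 0.12, adjusted p = 0.000619, edgeR quasi-likelihood test), or 189% of the control level, and it stayed past the threshold without any single library. Taf7 itself had a log2 fold change of -0.08 (SE 0.09, adjusted p = 0.601, edgeR), and the difference between the paralogs was not tested. Per kilobase, Taf7 remained the higher in RAM siRNA input, at 27.5 to 36.5 CPM per kb against 13.8 to 19.2 for Taf7l.

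Taf6 was the TFIID gene that fell. Its product has a histone fold that pairs with that of Taf9, and the gene lies on chromosome 5 (ENSMUSG00000036980, 138178617 to 138187451, minus strand). Control input libraries had 63.0, 67.2, 61.8 and 68.4 CPM and RAM siRNA libraries 53.5, 51.8, 47.5 and 59.7 CPM. All 4 RAM siRNA libraries were below all controls. The log2 fold change was -0.30 (SE 0.08, adjusted p = 0.025, edgeR), and the adjusted p lay between 0.00456 and 0.0771 when each library was left out, 6 of the 8 fits giving 0.0571 or more. With the replicate block the adjusted p was 5.31e-05. Of its exonic bases, 1185 lie opposite exons of antisense genes, and libraries kept the strand but the counting option was not given in the sources used here. Taf6l, its SAGA relative, had a log2 fold change of 0.08 (SE 0.06, adjusted p = 0.421).

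Other TFIID genes moved less. Taf5, a WD40 scaffold of the complex, had control input libraries of 31.5, 36.1, 30.4 and 29.9 CPM and RAM siRNA libraries of 27.0, 24.7, 25.9 and 31.1 CPM, and the groups overlapped. Its log2 fold change was -0.24 (SE 0.09), with an adjusted p of 0.111 without and 0.0131 with the block (edgeR). Taf12, the histone-fold partner of Taf4, had 22.6, 23.2, 22.9 and 24.5 CPM in control input and 19.9, 20.5, 18.6 and 22.6 CPM in RAM siRNA input, a log2 fold change of -0.20 (SE 0.08, adjusted p = 0.133 without and 0.0185 with the block, edgeR). The other 12 TFIID genes tested passed neither test. They ranged from -0.13 for Tbp to 0.25 for Taf9b on the log2 scale, the last with an SE of 0.15 and 3 of 4 pairs higher. Taf4 and Taf4b had values of 0.03 each (SE 0.08 and 0.07). Among the tested subunits shared with SAGA, which include Taf12 and Taf9b above, Taf10 was at 0.01 (SE 0.08).

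Mediator head genes went both ways. Med6, a head subunit conserved from yeast, lies on chromosome 12 (ENSMUSG00000002679, 81573557 to 81595008, minus strand). Control input libraries had 66.4, 60.5, 64.1 and 71.2 CPM and RAM siRNA libraries 45.1, 45.8, 49.0 and 49.3 CPM. Each RAM siRNA library was below each control. The log2 fold change was -0.47 (SE 0.07, adjusted p = 0.00138, edgeR), or 72.1% of the control level. It passed without any single library, with an adjusted p of at most 0.00834.

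Med20, a head subunit that pairs with Med18, rose. It lies on chromosome 17 (ENSMUSG00000092558, 47611582 to 47624418, plus strand). Control input libraries had 32.5, 31.7, 30.6 and 28.4 CPM and RAM siRNA libraries 39.7, 39.0, 37.1 and 37.9 CPM, with no overlap. The log2 fold change was 0.32 (SE 0.07, adjusted p = 0.0123, edgeR), and the adjusted p was at most 0.0478 without any single library. Med20 shares 513 of its 7324 exonic bases with the same-strand gene Gm20517, which had 14 to 30 counts per input library. Its partner Med18 had a log2 fold change of -0.07 (SE 0.11, adjusted p = 0.726).

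Med22, Med17 and Med8 were higher only with the block (adjusted p = 0.00294, 0.0132 and 0.047 in edgeR). Med22 had 38.4, 38.1, 37.7 and 38.4 CPM in control input and 45.1, 44.3, 41.4 and 45.4 CPM in RAM siRNA input, which did not overlap. Its log2 fold change of 0.20 (SE 0.06) had an adjusted p of 0.052 without the block. Med17, the head scaffold, had 50.7, 50.1, 44.8 and 55.3 CPM in control input and 53.7, 54.2, 52.1 and 64.6 CPM in RAM siRNA input, a log2 fold change of 0.16 (SE 0.09). Med8 had a log2 fold change of 0.12 (SE 0.08). In both genes RAM siRNA replicate 4 was the highest library, and the groups overlapped. Med11 had a log2 fold change of 0.05 (SE 0.10).

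In the middle, Med9 was lower with the block (25.1, 26.5, 22.3 and 28.6 CPM in control input, 19.4, 20.2, 20.4 and 24.9 CPM in RAM siRNA input). Its log2 fold change was -0.27 (SE 0.10, adjusted p = 0.0975 without and 0.00245 with the block, edgeR). Med19 had a log2 fold change of -0.15 (SE 0.10, adjusted p = 0.373 without and 0.0359 with the block). The backbone gene Med14, whose product ties head, middle and tail together, had 26.6, 24.5, 30.0 and 25.8 CPM in control input and 20.8, 21.6, 26.5 and 23.5 CPM in RAM siRNA input. It was lower in all 4 pairs, with a log2 fold change of -0.21 (SE 0.10, adjusted p = 0.176 without and 0.0096 with the block, edgeR). Med1, the subunit that binds nuclear receptors, was at 0.05 (SE 0.11).

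Of the tail, which receives activators, Med25 was higher with the block (log2 fold change 0.15, SE 0.08, adjusted p = 0.265 without and 0.0119 with it, edgeR), and Med15, Med16, Med23 and Med24 lay between -0.14 and 0.07. Med27 to Med30, which schemes place in the head or the tail, lay between -0.14 and 0.10 and passed neither test.

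In the kinase module, Ccnc, the gene of cyclin C, fell. It lies on chromosome 4 (ENSMUSG00000028252, 21727701 to 21759922, plus strand). Control input libraries had 77.9, 81.9, 68.3 and 73.3 CPM and RAM siRNA libraries 62.5, 66.6, 60.5 and 64.9 CPM, with no overlap. The log2 fold change was -0.25 (SE 0.07, adjusted p = 0.0412, edgeR), and it lay above the threshold in 6 of the 8 fits that left out a library, with an adjusted p of up to 0.132. With the block the adjusted p was 0.000261. Its kinase Cdk8 had a log2 fold change of -0.08 (SE 0.07, adjusted p = 0.473) and Cdk19, the paralog of Cdk8, -0.03 (SE 0.09). Med12 (-0.05, SE 0.10), Med13 (-0.04, SE 0.10) and Med13l (-0.04, SE 0.08) passed neither test. Med12l, the paralog of Med12, had 11.7, 10.9, 15.3 and 11.6 CPM in control input and 15.0, 15.0, 16.05 and 14.4 CPM in RAM siRNA input, a log2 fold change of 0.28 (SE 0.11, adjusted p = 0.126 without and 0.00847 with the block, edgeR).

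Ak6 was lower with the block, from 14.8, 13.5, 10.7 and 14.7 CPM in control input to 10.9, 11.0, 9.88 and 12.8 CPM in RAM siRNA input (log2 fold change -0.27, SE 0.12, adjusted p = 0.165 without and 0.0138 with it, edgeR). Given the shared exons, this count cannot be assigned to Ak6 or to Taf9. Taf5l (0.05, SE 0.06) and Taf15 (0.07, SE 0.10) passed neither test.

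**Figure D3:**
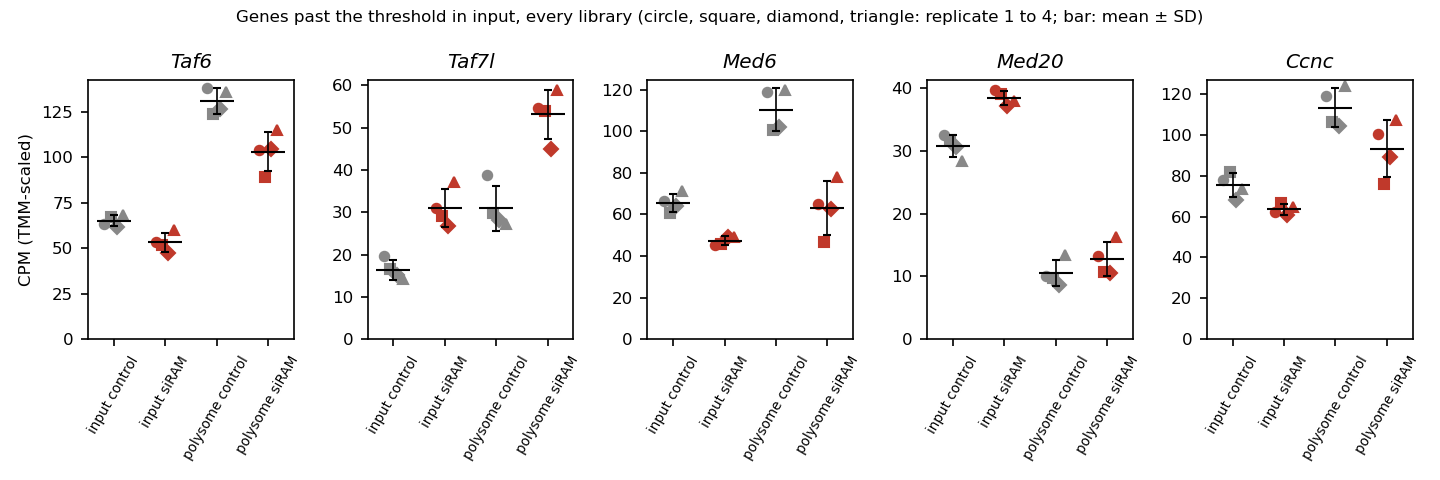
CPM of the 5 members called in input without the block, in every library, for control (grey) and RAM siRNA (red) cells in input and polysome RNA. Symbols mark replicates 1 to 4, and the bars give the mean and SD of 4 libraries. Med6 and Taf6 were lower and Taf7l was higher in each RAM siRNA library in both fractions, while the polysome libraries of Med20 and Ccnc overlapped.

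A short sequence stood more often in genes lower in RAM siRNA input than in the rest, which is given as a description without a test. ACTATC, read on the sense strand, occurred in an annotated 3′ untranslated region of 38.2% of 751 genes called lower, of 8.73% of 859 called higher and of 15.8% of 12057 tested genes with such a region. With the replicate block it occurred in 26.6% of 2371 genes called lower and 10.8% of 2459 called higher. The hexamer was taken up with earlier results of these data known. The siRNA sequence is not given in the sources used here, 3′ untranslated length was not taken into account, and the part of the hexamer in the fall was not tested. Among the members it occurred in 5 of 16 TFIID genes (Tbp, Taf2, Taf7, Taf12 and Taf13) and in 6 of 32 Mediator genes (Med6, Med7, Med10, Med13, Med15 and Med28). Med6 was the only one of them among the 3 members lower without the block, and Taf12 was added with the block, while Taf6 and Ccnc did not hold it. No member called higher, without or with the block, held it.

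The sites of Med6 and Taf12 are shown beside those of Med7 and Med13, which hold the hexamer and passed neither test, each with ACTATC in capitals. They lie on GRCm38 at chr12:81573731-81573760 (minus strand), chr4:132293622-132293651 and chr4:132295458-132295487 (plus), chr11:46441876-46441905 (plus), and chr11:86268011-86268040 and chr11:86268794-86268823 (minus).
Med6: gagcctggaaacACTATCgcagtttgtacg
Taf12, site 1: tatcttgctgagACTATCcttgaactgacc
Taf12, site 2: cagctgtgagtgACTATCtgcaagtgtctt
Med7: gtgtttgctaagACTATCctagtctcttag
Med13, site 1: actacttagtcaACTATCctcagctgtatt
Med13, site 2: tttctattaagaACTATCcttgttattttc
The log2 fold changes of these genes in input were -0.47 for Med6, -0.20 for Taf12, -0.01 for Med7 and -0.04 for Med13. Over the members, the median log2 fold change was -0.08 for the 5 TFIID genes with the hexamer and 0.01 for the 11 without it, and -0.08 for the 6 Mediator genes with it and 0.03 for the 26 without it. Over all 12057 tested genes with an annotated 3′ untranslated region it was -0.07 with the hexamer and 0.01 without it.

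In polysome RNA no member passed the test without the block, where 0.0234% of all genes did, and 2 members had an unadjusted p under 0.05 (edgeR). With the block 2 members passed, Med6 and Taf7l, beside 4.97% of all genes lower and 9.68% higher. DESeq2 called 2 members without the block and 3 with it (3.85% and 5.77%), beside 2.34% and 12.4% of all genes. Med6 had 119, 101, 102 and 119.8 CPM in control polysomes and 65.0, 46.6, 62.6 and 77.9 CPM in RAM siRNA polysomes, with no overlap. Its log2 fold change was -0.76 (SE 0.18, adjusted p = 0.187 without and 0.000476 with the block, edgeR). Taf7l had 38.7, 29.8, 28.2 and 27.1 CPM in control polysomes and 54.7, 53.9, 44.9 and 59.0 CPM in RAM siRNA polysomes, also with no overlap. Its log2 fold change was 0.83 (SE 0.16, adjusted p = 0.0936 without and 0.000314 with the block, edgeR).

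The next largest values of each complex in polysomes passed neither edgeR test. Taf6 had 137.8, 123, 126 and 136 CPM in control polysomes and 104, 88.8, 104 and 115 CPM in RAM siRNA polysomes, again with no overlap, and a log2 fold change of -0.29 (SE 0.15, adjusted p = 0.624 without and 0.0792 with the block). Taf5 had -0.26 (SE 0.15), Tbp -0.23 (SE 0.22), Med27 -0.26 (SE 0.15) and Ccnc -0.23 (SE 0.16). On the higher side Taf4 had 0.22 (SE 0.21), Taf10 0.21 (SE 0.42), Med12 0.34 (SE 0.57), Med21 0.34 (SE 0.43) and Med20 0.32 (SE 0.20).

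Standard errors were larger in polysomes, where the libraries differed by transcript length. By their medians, members with an annotated transcript over 5000 bases were high in polysome replicates 1 and 2 and low in replicates 3 and 4, and members under 1500 bases the reverse, in control and in RAM siRNA cells. In RAM siRNA polysomes, the median deviation from a gene's mean over the group was -0.81 in replicate 2 and 0.68 in replicate 4 for the 12 members under 1500 bases, and 0.34 and -0.28 for the 11 members over 5000 bases. Across genes, transcript length and the difference of replicate 2 and replicate 4 had a Spearman rho of 0.65 in control polysomes and 0.66 in RAM siRNA polysomes over the 52 members, beside 0.62 and 0.65 over 12125 genes. In Mediator alone the polysome values were 0.78 and 0.80 (32 genes), and in TFIID alone 0.33 and 0.34 (16 genes). In RAM siRNA polysome replicate 4, transcripts over 5000 bases had a median deviation of 0.08 in TFIID (4 genes) and -0.56 in Mediator (7 genes). Some annotated transcripts are mostly untranslated, as for Tbp (948 coding of 12794 bases), Taf10 (654 of 4281) and Med28 (534 of 4560). Like members under 1500 bases, Taf10 (27.0 and 65.4 CPM in control) and Med28 (29.9 and 49.8) were lower in polysome replicate 2 than in 4. The part of the annotated lengths in the difference between the complexes was not tested. In input the rho over the members was 0.26 and 0.45. Genes share each library here and are not independent.

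Med23, a tail subunit with a transcript of 5098 bases, had 106, 184, 79.6 and 89.7 CPM in control polysomes and 93.9, 287, 59.5 and 69.5 CPM in RAM siRNA polysomes. Med12 (6809 bases) had 10.7, 16.5, 7.22 and 7.90 CPM in control polysomes and 8.32, 33.0, 5.46 and 5.69 CPM in RAM siRNA polysomes. For both, replicate 2 was highest in each group and RAM siRNA replicate 2 was highest of all. Med21 (814 bases) went the other way, with 23.2, 18.6, 31.3 and 46.0 CPM in control polysomes and 26.0, 16.1, 42.5 and 60.7 CPM in RAM siRNA polysomes.

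The polysome calls depended on these libraries. With the block and without control replicate 2, 20 members passed in polysomes (edgeR), 10 lower and 10 higher, and without RAM siRNA replicate 2, 18 members passed, 7 lower and 11 higher, while without any other polysome library, replicate 4 included, the count stayed at 2. Both fits called 17 of them. Over all 12805 genes tested they called 4881 and 4566, about the same share as among the 52 members. In such a fit the unpaired library adds nothing to the contrast, so both rest on the other 3 pairs. The 17 were Taf1, Taf5, Taf6, Taf15, Med6, Med12 and Med23 among the lower and Taf5l, Taf7l, Taf10, Med8, Med11, Med20, Med21, Med29, Med30 and Med31 among the higher. Med6 (-0.70 and -0.67) and Taf7l (0.79 and 0.82) kept their size. The value for Med12 turned from 0.34 over all polysome libraries to -0.38 and -0.35, and that for Med23 from 0.19 to -0.29 and -0.26. Of the 7 lower genes 3 have transcripts over 5000 bases and 1 under 1500, and of the 10 higher genes 0 and 6, and the part of length in these calls was not tested.

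**Figure D4:**
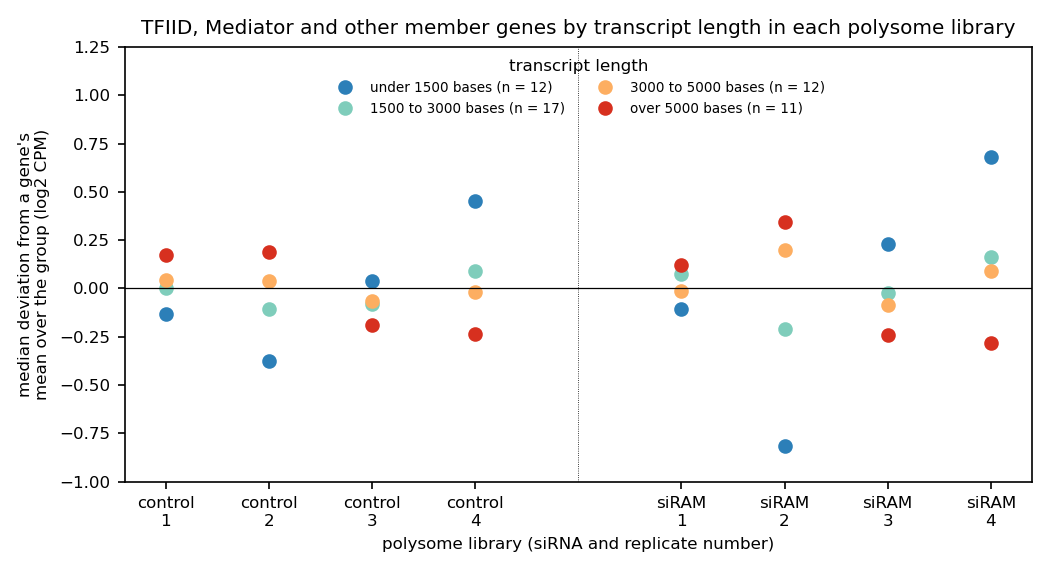
Median deviation of the members from each gene's mean over its group (log2 CPM), in the 4 control and 4 RAM siRNA polysome libraries, by length of the annotated transcript. Members under 1500 bases (blue) lie lowest in replicate 2 and highest in replicate 4, and members over 5000 bases (red) are above 0 in replicates 1 and 2 and below 0 in replicates 3 and 4.

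No member passed the test for a change of polysome loading, without the block or with it (edgeR, 0 of 52). The test asks whether the response in polysomes differs from that in input. Each library is scaled to its own total, here and in the polysome comparison, so a shift common to all genes cannot show. The paper reports a lower ratio of polysomes to monosomes after RAM siRNA. The unadjusted p was under 0.05 for 0 members without the block and 2 with it, and DESeq2 also called 0. With the block, 0.0156% of all genes passed. The smallest p among falls belonged to Med6, with a difference of -0.34 on the log2 scale (SE 0.19, unadjusted p = 0.0991 without the block and 0.00812 with it). Among rises it belonged to Taf5l, at 0.12 (SE 0.15, unadjusted p = 0.444). Leaving out either polysome library of replicate 2 with the block gave 3 calls of 52, all lower. These were Taf15 (-0.50), Med23 (-0.39) and Med17 (-0.28). Of all 12805 genes tested, 732 were called in each of these fits, about the same share as among the members.

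In control cells the members differed widely in their level on polysomes relative to input. The comparison sets each gene's level in polysomes against its level in input, both scaled to the total of their fraction, so it ranks transcripts and gives no absolute share. Of the 52 members, 15 were lower in polysomes and 17 higher (edgeR, adjusted p under 0.05), beside 34.3% of all genes lower and 33.1% higher. TFIID had 4 lower and 5 higher of 16, with a median log2 ratio of 0.16, and Mediator had 10 lower and 11 higher of 32, with a median of -0.03. Over all genes the median was 0.00. The medians of the same-numbered pairs were 0.18 ± 0.08 for TFIID and 0.12 ± 0.12 for Mediator (mean and SD of 4 pairs), so the complexes lay within the spread of the pairs, and the median of Mediator had another sign in the fit than over the pairs. Without polysome control replicate 2, 31 members were called, 14 lower and 17 higher, and the medians were 0.19 for TFIID and 0.05 for Mediator. Over all libraries left out in turn, 28 to 37 members were called, and the share of all genes called then is not given here. The medians lay between 0.12 and 0.22 for TFIID and between -0.09 and 0.05 for Mediator. The lowest of Mediator was without polysome control replicate 4.

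Within Mediator the calls were spread unevenly, and differences between its parts were not tested. In the kinase module Med12, Med12l, Med13 and Med13l were all lower in polysomes, with log2 ratios between -1.55 and -1.17, while Ccnc was higher (0.55, SE 0.11, adjusted p = 0.00107) and Cdk8 did not pass (0.10, SE 0.10). Med13, for example, had 127, 111, 142 and 113 CPM in control input and 54.8, 56.5, 34.6 and 26.4 CPM in control polysomes. Cdk19, beside its paralog Cdk8, had a log2 ratio of -2.13 (SE 0.14). In the tail, 3 of 5 genes were higher and none lower. Med16 had a log2 ratio of 0.99 (SE 0.11), Med24 of 0.86 (SE 0.11) and Med25 of 1.05 (SE 0.13), while Med15 and Med23 did not pass.

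The highest Mediator genes in control polysomes were Med27 (log2 ratio 1.17, SE 0.11, adjusted p = 5.28e-06, edgeR), Med25 (adjusted p = 2.78e-05) and Med7 (0.99, SE 0.13, adjusted p = 5.24e-05), which was level with the tail gene Med16. Med27 had 12.4, 13.0, 11.9 and 12.7 CPM in control input and 31.0, 29.1, 25.0 and 30.1 CPM in control polysomes. The lowest were Med20 (-1.59, SE 0.15, adjusted p = 4.14e-06, edgeR), Med13 (-1.55, SE 0.22) and Med13l (-1.42, SE 0.18). Med20 went from the 28.4 to 32.5 CPM of control input to 10.1, 9.69, 8.69 and 13.5 CPM in control polysomes, and its 7324 exonic bases include many outside the coding transcript of 2054 bases. Within the head, Med22 was also lower (-1.07, SE 0.13), and Med6 (0.72, SE 0.11) and Med17 (0.73, SE 0.12) were higher.

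In TFIID the highest were Taf7 (log2 ratio 1.14, SE 0.11, adjusted p = 5.2e-06, edgeR), Taf6 (0.97, SE 0.10) and Taf7l (0.88, SE 0.15). Taf7 had 105, 112, 99.95 and 117 CPM in control input and 268, 241, 229 and 240.2 CPM in control polysomes. The lowest were Taf4 (-1.48, SE 0.15, adjusted p = 6.91e-06, edgeR), Taf1 (-1.19, SE 0.25) and Taf8 (-1.01, SE 0.11). Taf4 had 40.1, 42.5, 36.6 and 35.3 CPM in control input and 14.1, 17.8, 13.7 and 11.1 CPM in control polysomes. Its paralog Taf4b had a log2 ratio of 0.13 (SE 0.11, adjusted p = 0.301), and the difference of the paralogs was not tested. Taf5 (0.46, SE 0.12) and Tbp (0.39, SE 0.13) were also higher, and Taf13 (-0.86, SE 0.18) lower.

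Over the members together, long transcripts were the most often low. Of the 11 members over 5000 bases, 6 were lower in control polysomes and 1, Tbp, was higher, with a median log2 ratio of -1.17, beside -0.67 over 2346 genes of that length, of which 1447 were lower and 193 higher. The share of members called lower was thus no larger than that of all genes of this length. By complex, the 7 Mediator genes of this length had a median of -1.305, with 5 lower and 0 higher. The 4 TFIID genes had a median of 0.20, with 1 lower and 1 higher, so the low values were mostly those of Mediator. Tbp counts among these 4 through an annotated transcript of 12794 bases, of which 948 are coding. The 12 members under 1500 bases had a median of -0.01 and the 12 between 3000 and 5000 bases 0.28. Over the 52 members the Spearman rho of log2 ratio and transcript length was -0.22, and with coding length it was -0.04, beside -0.39 and -0.17 over 12125 genes. The highest log2 ratio among members over 5000 bases was 0.39, that of Tbp.

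**Figure D5:**
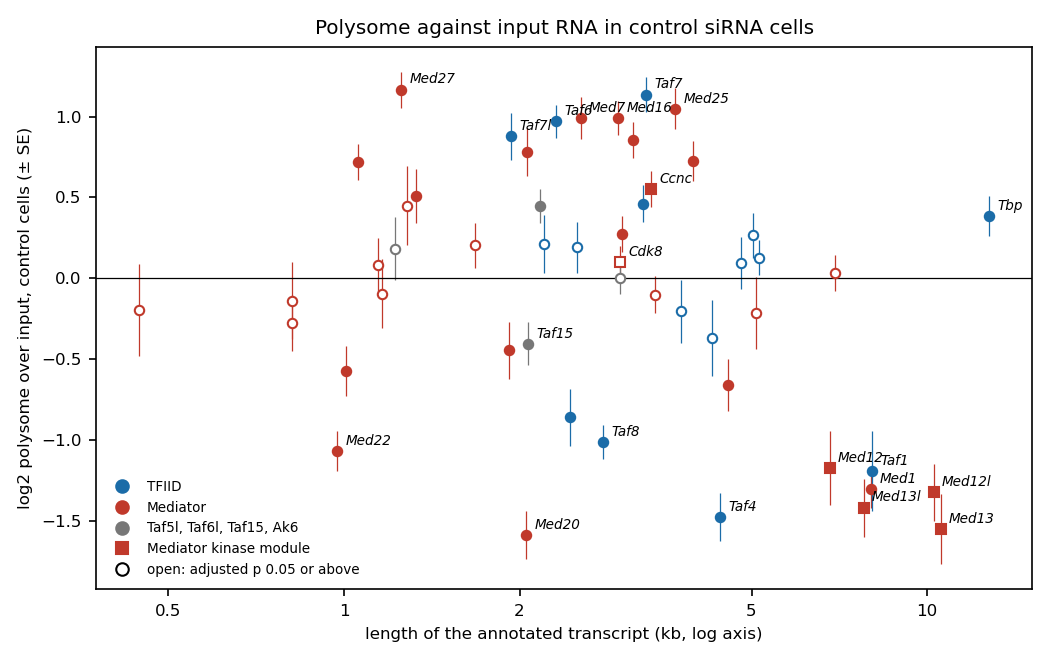
Log2 ratio of polysome to input RNA in control siRNA cells (with SE, n = 4 libraries per fraction) against the length of the annotated transcript in kb on a log axis, for TFIID (blue), Mediator (red, squares for the kinase module) and the other 4 members (grey). Filled symbols passed an adjusted p of 0.05 in edgeR. Med12, Med12l, Med13 and Med13l lie together at the lower right, between -1.55 and -1.17, apart from Cdk8 and Ccnc.

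The other general transcription factors, SAGA and the RNA polymerase I factors were listed for comparison, 41 genes of which 40 were tested. These genes, too, were listed with earlier results known. In input 6 were lower and 2 higher without the block, and 13 lower and 3 higher with it (edgeR), beside the 5.94% lower and 6.95% higher of all genes without the block and 19.0% and 20.3% with it. Without the block, 4 of the 14 SAGA genes listed were lower and none higher. The members Taf5l, Taf6l, Taf9b, Taf10 and Taf12, in SAGA or shared with it, are not among these 14. None of them passed without the block, and Taf12 was lower with it. Of the 10 TFIIH genes 1 was lower without the block, and none of TFIIA, TFIIB, TFIIE or TFIIF passed. With it, SAGA had 6 lower and 1 higher, TFIIH 3 lower, and Gtf2a1 of TFIIA and Gtf2e2 of TFIIE were lower (block adjusted p = 0.0308 and 0.0405, edgeR). Of the 4 RNA polymerase I factors 1 was lower and 2 were higher in both fits. The largest fall was that of Kat2b, a SAGA acetyltransferase (log2 fold change -0.59, SE 0.08, adjusted p = 0.000924, edgeR), and the largest rise that of Taf1c, a subunit of the RNA polymerase I factor SL1 (0.36, SE 0.08, adjusted p = 0.0105, edgeR). In control cells 16 of the 40 were lower in polysomes (17 with the block) and 19 higher, beside 34.3% and 33.1% of all genes.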

How the data were processed

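RNA was measured in input and polysome libraries of control and RAM siRNA cells, 4 of each. The authors mapped reads to GRCm38 with STAR 2.5.1b, used htseq-count to count reads in genes, and deposited the raw counts without normalization. Strand and overlap settings and the annotation release are not given in the sources used here, and 0 columns belong to other samples. Gene IDs (46488 of 46983) were named, and lengths and untranslated regions taken, from GENCODE M21. Promoter sequences are from RefSeq (GRCm38.p6).

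Counts were scaled by TMM and tested in edgeR 4.0.16 (quasi-likelihood F-test, R 4.3.3). Adjustment was by Benjamini-Hochberg over the 12805 genes that reached 1 CPM in 10 or more of 16 libraries. Log2 CPM used a pseudocount of 0.5. Alternatives were the replicate block, DESeq2 1.42.0, RLE scaling, no filter and leaving out each library. Levels per kilobase divide by the annotated transcript with the longest coding sequence.

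The replicate numbers in the labels were taken to pair the samples. Over the tested genes, control and RAM siRNA libraries of a number deviated together from their group means, with Pearson r between 0.29 and 0.59 in input (mean 0.46, against -0.15 for other numbers) and between 0.51 and 0.87 in polysomes (mean 0.75, against -0.25). Deviations within a group cancel out, so the values for other numbers are largely set by those for the same number and are no separate comparison. Between fractions the mean r for the same number was 0.35 in control and 0.39 in RAM siRNA cells. No libraries of a group agreed within counting noise (chi-square per gene of at least 4.22). Libraries of 16647523 to 20147833 counts leave few counts to a gene near 1 CPM, where counting error adds to the spread.

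The members, the classes, the related genes and the markers were chosen with earlier results of these data known. The genes named are the members called in input without or with the block, the largest changes in polysomes, the extremes of loading, of polysome over input and of level per length in each complex, the paralogs, and the largest called fall and rise of the related genes. Other genes are named to account for every part of a complex.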

Additional observations from a re-analysis of the deposited data

Results flagged for a closer look

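Single libraries lay far from the other 3 of their group by Dixon's criterion in 8 of 116 groups examined (29 members in 4 groups each), and chance alone gives about 1 in 20. In RAM siRNA polysomes replicate 2 had 33.0 CPM of Med12 against 5.46 to 8.32 in the others, and 288 CPM of Med23 against 59.5 to 93.9. In RAM siRNA input replicate 4 had 64.6 CPM of Med17 (others 52.1 to 54.2), 120.0 CPM of Med23 (141 to 145), 22.2 CPM of Med29 (15.6 to 15.7), 67.2 CPM of Med8 (53.7 to 55.4) and 0.453 CPM of Taf9 (0.819 to 0.87). The polysome value of Taf9 in RAM siRNA replicate 1, 0.0603 CPM, is a single read where the others had 0. The causes were not tested.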

How the results depend on the processing

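The 5 members called in input became 16 with the replicate block, 6 by DESeq2, 7 by DESeq2 with the block, and 3 to 8 without each library in turn. With the block and without either library of replicate 1, 2, 3 or 4 they were 9, 13, 11 and 18, an alternative chosen after seeing the data. No share of all genes stands beside these input counts with a library left out. In polysomes 0 members were called without the block, also without each library (0 to 0), 2 with the block, 2 by DESeq2, 3 by DESeq2 with the block, and 2 to 20 with the block and without each library. For the change of loading the last setting gave 0 to 3. The median log2 fold change of Mediator in input, -0.029, lay between -0.0316 and 0.00831 without each library. That of TFIID, -0.03, lay between -0.0682 and -0.00146. The Mediator median was -0.0554 without the filter on low counts, when the median of all genes moved by -0.03, about the same amount, and 0.0345 over genes without ACTATC, the latter chosen after seeing the data. Without the filter the medians of log2 polysome over input were 0.263 for TFIID and 0.105 for Mediator, when the median of all genes moved by 0.14. Without each library they lay between 0.12 and 0.22 and between -0.09 and 0.05. Other causes were not tested. With the replicate block the count stayed 0 for the change of loading and 32 for polysome against input in control cells. DESeq2 gave no adjusted p for Med12 in polysomes. A single siRNA sequence, 4 replicates and the length difference between polysome libraries limit what the polysome values can show.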
